A study of Mus musculus with 9 samples.

Results

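XBP1 peaks were examined at the genes of 3 acute-phase regulators, Stat3, Socs3 and Cebpb, in mouse liver. Members were the peaks whose midpoint lay in fixed windows of the mm9 build, chr11:100740001-100815000 for Stat3, chr11:117815001-117850000 for Socs3 and chr2:167490001-167700000 for Cebpb with its downstream region. The windows span 75 kb, 35 kb and 210 kb. They held 110 of the 64078 peaks in 8 deposited lists, with 14 peaks at Stat3, 18 at Socs3 and 78 at Cebpb. The lists came from XBP1 chromatin immunoprecipitation (antibody M-186), followed by sequencing, in liver of C57Bl6-J mice, labelled wildtype, with 1 library per condition. Of the unsilenced livers, 1 was basal, 2 were taken 6 h and 48 h after partial hepatectomy, and 2 at the same times after a sham operation, an incision and lifting of the lobes without removal of tissue. The other 3 came from mice given, 7 days earlier, an adenovirus with shXBP1, a short hairpin RNA that silences XBP1. They were a basal liver and livers at the 2 times after hepatectomy. The age given was 8 weeks for every sample, basal livers included, and for operated mice it was the age at surgery. Clodronate liposomes were given before the virus. The labels do not say whether unsilenced mice received the control virus against LacZ or the liposomes, nor whether a library came from 1 mouse or a pool. Peak lists hold no expression values, so the liver label was not checked against marker genes.

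During liver regeneration and the acute-phase response, interleukin-6 binds its receptor with gp130 on hepatocytes, and the JAK kinases bound to gp130 phosphorylate STAT3. STAT3 then enters the nucleus and switches on genes of secreted acute-phase proteins. SOCS3, itself a STAT3 target, binds gp130 and JAK and shuts the signal off. C/EBPβ, encoded by Cebpb and first known as a nuclear factor for interleukin-6 expression, binds promoters of acute-phase genes and is required for normal hepatocyte proliferation after hepatectomy. XBP1 acts in the unfolded protein response as a DNA-binding factor, made from a spliced messenger RNA when IRE1 is active, and it drives genes of protein folding, secretion and degradation.

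The sequences below are the 250 bases before the RefSeq start of each gene, 5′ to 3′ on the gene's strand, and show which of the letters bound by these factors stand at the promoters. They are from RefSeq's GRCm38.p6 table, which held 1 promoter for each of the 3 genes. The peaks are on mm9, so whether a peak covers these bases was not determined. Capitals mark the match to the STAT motif TTCNNNGAA.

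Stat3: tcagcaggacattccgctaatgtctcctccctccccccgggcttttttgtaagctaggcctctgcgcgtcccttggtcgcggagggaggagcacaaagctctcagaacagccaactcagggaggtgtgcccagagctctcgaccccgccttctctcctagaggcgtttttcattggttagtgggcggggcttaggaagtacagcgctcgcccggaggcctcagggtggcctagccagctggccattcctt
Socs3: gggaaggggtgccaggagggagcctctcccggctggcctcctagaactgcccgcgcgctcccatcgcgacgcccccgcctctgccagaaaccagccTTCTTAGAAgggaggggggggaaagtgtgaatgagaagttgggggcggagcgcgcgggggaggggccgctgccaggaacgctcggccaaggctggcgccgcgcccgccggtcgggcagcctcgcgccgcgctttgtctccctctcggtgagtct
Cebpb: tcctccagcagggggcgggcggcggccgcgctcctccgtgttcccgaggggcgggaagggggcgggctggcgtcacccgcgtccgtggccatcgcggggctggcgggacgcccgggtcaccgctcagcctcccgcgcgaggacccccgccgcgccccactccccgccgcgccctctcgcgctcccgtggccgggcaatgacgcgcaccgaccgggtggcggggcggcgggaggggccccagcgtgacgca

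Socs3 carried 1 match to the STAT motif, TTCTTAGAA, at -154 to -146 from the start, and a match to TTCNNNGAA is held by 7.02% of the 32851 promoters in the table. The XBP1 core ACGTG, present in 16.6% of all promoters, was not found in these bases of the 3 genes on either strand. The same was true of the longer TGACGTGG, which contains that core (0.563% of promoters), of the ER stress response element ERSE (0.113%) and of the C/EBP motif TTGCNNAA (9.56%). All 3 promoters were rich in G and C, at 60.8% for Stat3, 71.6% for Socs3 and 81.6% for Cebpb, against a median of 52.4% over the table. CG dinucleotides numbered 13, 26 and 41 in the same order, against a median of 6.

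XBP1 peaks at the 3 genes were few in basal liver and many at 6 h after either operation. The basal list held 3 peaks in the windows, the list 6 h after hepatectomy 43 and the list 6 h after sham 35. At 48 h hepatectomy gave 9 and sham 10. In the silenced livers 10 peaks were called 6 h after hepatectomy, and none in the basal or the 48 h list. Whole lists were also longest at 6 h, with 2482 peaks in basal liver, 22071 and 23087 in the 6 h hepatectomy and sham lists, and 7212 and 4622 in those of 48 h. Between the operations they stood in the reverse order of the members at both times. As a share of the whole list, the members made up 0.121% in basal liver (95% Clopper-Pearson interval 0.0249 to 0.353%) and 0.195% 6 h after hepatectomy (0.141 to 0.262%), intervals that overlap. The intervals cover counting error only. With 1 library per condition no test between conditions was possible, and the sources used here do not give read numbers. In bulk liver, fewer cells that carry a bound site and weaker binding per cell cannot be told apart. The silenced basal and 48 h lists had 177 and 102 peaks. A count of 0, taken to allow up to 3 peaks, allows a share of up to 1.69% and 2.94% there, far above the members' share in any list, so the loss of members was not detectable at that list length.

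**Figure D1:**
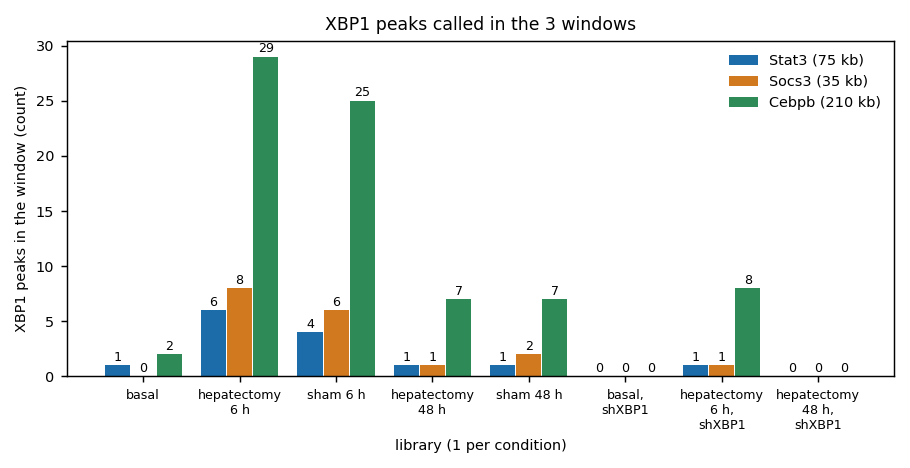
XBP1 peaks in each window (count, vertical axis) in the 8 libraries (horizontal axis, 1 library per condition, no error bars); colours mark the 3 windows. The 6 h bars are the highest in all 3 windows, Cebpb with 29 and 25 peaks, and 2 silenced libraries have no peak.

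Each peak's score is the authors' value, read as −log10 of a p-value, a scale inferred from the values, and serves here to rank peaks inside 1 list. The members stood close to their whole lists in median score. Their median was 19.6 against 19 over the whole list 6 h after hepatectomy, 17.6 against 16.3 after sham at 6 h, and 11.5 against 12.7 at 48 h after hepatectomy. After sham at 48 h it was 15.0 against 14.7, in the silenced 6 h list 15.9 against 14.2, and in basal liver 16.9 against 14.5. Of the 43 members 6 h after hepatectomy, 6 stood in the highest-scoring 10% of the list and 22 in the upper 50%. The 6 h sham list had 7 of 35 and 18 of 35. At 6 h the median member was 523 bp wide against 429 bp in the whole list after hepatectomy, and 425 bp against 412 bp after sham. The members of all lists merged into 46 regions, which are numbered below along each window. Of these, 31 had a peak in both 6 h lists, 11 after hepatectomy and not after sham, and 4 after sham and not after hepatectomy. A peak in a 6 h list alone, with none in basal, 48 h or silenced liver, was found for 34 regions. All 11 regions with a 48 h peak had a peak in both 6 h lists, as did all 10 with a silenced 6 h peak. Regions were not merged over the whole lists, so no whole-list share stands beside these counts. Overlap with a 6 h hepatectomy peak was common in whole lists. It held for 98.3% of basal peaks, 91.0% of those 48 h after hepatectomy and 98.2% of silenced 6 h peaks.

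At Stat3, the gene of the transcription factor that carries the interleukin-6 signal, 1 site stood out from weaker ones around it. Region Stat3-6, chr11:100800657-100801662, had the highest-scoring peak of the window in each of the 6 lists with a member. Its score was 7.97 in basal liver, 103 at 6 h after hepatectomy, 77.7 at 6 h after sham, 18.7 at 48 h after hepatectomy, 34.5 at 48 h after sham and 31.5 in the silenced 6 h liver. By rank the site stood low in the basal list, at 2291 of 2482, and high in the 6 h lists, at 1279 of 22071 after hepatectomy and 841 of 23087 after sham. It ranked 1628 of 7212 and 658 of 4622 in the 48 h hepatectomy and sham lists, and 602 of 4325 in the silenced 6 h list. The basal peak was 501 bp wide, and the 6 h peaks were 999 bp after hepatectomy and 973 bp after sham.

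The window held 6 peaks after hepatectomy and 4 after sham at 6 h. Of 35075 windows of 75 kb laid end to end along the chromosomes, 617 (1.76%) held 6 or more hepatectomy peaks and 1931 (5.51%) held 4 or more sham peaks. The Stat3 window was chosen with earlier results of these data known, so these shares only describe how dense it was. The other 5 regions of the Stat3 window had peaks at 6 h alone. Stat3-3, chr11:100792761-100793195, scored 26.2 after hepatectomy and 17.6 after sham. Stat3-1, chr11:100769479-100770296, scored 23.2 and 19.9, and Stat3-5, chr11:100799346-100799825, beside Stat3-6, scored 13.2 and 12.2. These 3 ranked well below Stat3-6 in both lists, from 7830 to 15374 after hepatectomy and from 8469 to 15558 after sham. The 2 remaining regions were weak peaks after hepatectomy, with scores of 7.16 and 7.77, and had no sham counterpart. The nearest peaks outside the window in the 6 h hepatectomy list lay 18142 bp before its start (score 9.69) and 55776 bp beyond its end (score 13.8), and the outermost members 29872 bp and 13837 bp inside. In RefSeq's gene order on GRCm38.p6, Stat3 stands between Stat5a, which encodes another STAT factor, and Cavin1, a gene of caveolae. Whether a neighbour reaches into the window was not determined, nor whether a peak lies in an exon, an intron or between genes, here or at the other windows.

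Socs3, the gene of the feedback inhibitor, had no peak in basal liver and a dense group of peaks at 6 h. The window held 8 peaks after hepatectomy and 6 after sham. Of 75169 windows of 35 kb laid end to end along chromosomes 1 to 19 and X, 16.7% held a hepatectomy peak and 66 (0.0878%) held 8 or more. For sham, 255 (0.339%) held 6 or more. At 48 h, 1 peak was called after hepatectomy and 2 after sham, and the silenced 6 h list had 1. The windows laid end to end include gene-poor stretches. The Socs3 window was chosen with earlier results of these data known, so these shares only describe how dense it was.

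All but 1 of the 8 Socs3 regions lay within 12.5 kb. Socs3-2, chr11:117823478-117825158, had the highest-scoring peak of the window in all 5 lists with a member. Its score was 57.9 at 6 h after hepatectomy, 57.3 at 6 h after sham, 11.5 at 48 h after either operation and 15.3 in the silenced 6 h liver. In rank it stood at 2912 of 22071 and 1502 of 23087 at 6 h, 3770 of 7212 and 3096 of 4622 at 48 h, and 1948 of 4325 in the silenced list. The site was thus in the upper part of both 6 h lists. At 48 h it stood near the middle of the hepatectomy list (52.3%) and in the lower part of the sham list (67.0%). In the 6 h hepatectomy list it was called as 2 peaks, the weaker with a score of 26.9. In the 6 h sham list it was called as 1 peak of 1575 bp. Next to it, Socs3-3 at chr11:117826244-117827378 scored 46.1 and 42.5 in the 6 h hepatectomy and sham lists, and 7.53 after sham at 48 h. It ranked 3930 in the 6 h hepatectomy list and had no peak in the silenced 6 h list.

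The peaks further along the Socs3 window differed between the 6 h libraries in rank or in presence. All ranked higher after hepatectomy or were called there and not after sham, except Socs3-5, a weak sham peak with a score of 7.97. Socs3-6, chr11:117830259-117830856, ranked 4660 of 22071 after hepatectomy (score 40.4) and 11952 of 23087 after sham (score 15.3). Socs3-8, chr11:117849123-117849669, had a score of 36.1 and rank 5461 after hepatectomy and no peak in any other list. It was the highest-scoring member without a 6 h sham counterpart, and its midpoint lay 604 bp inside the window's end. In this list the next peak beyond that end was 164474 bp away, with a score of 13.8. Socs3-4 was called after hepatectomy and not after sham, Socs3-5 after sham and not after hepatectomy, and Socs3-7 ranked 11719 after hepatectomy and 20028 after sham. These 3 and Socs3-1, where called, scored between 7.77 and 17.4 after hepatectomy and between 7.97 and 10.9 after sham. In gene order Socs3 lies between Tha1, for a threonine aldolase, and Pgs1, for an enzyme of phospholipid synthesis.

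**Figure D2:**
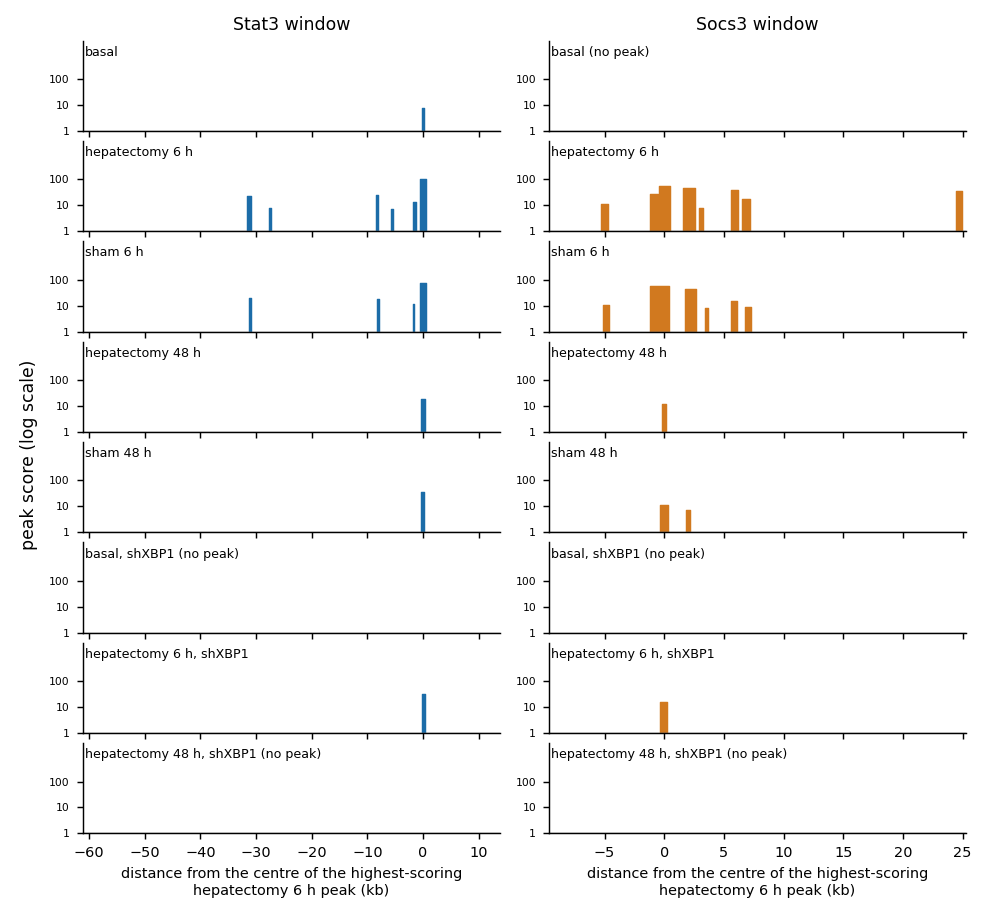
Peaks in the Stat3 window (left) and the Socs3 window (right), 1 row per library; the horizontal axis is the distance in kb from the centre of the highest-scoring hepatectomy 6 h peak of the window and the vertical axis the peak score on a log scale, with bars as wide as the peaks. The bar at 0 kb is the one that recurs outside the 6 h lists, joined by 1 further bar at Socs3 after sham at 48 h; basal liver has no bar at Socs3.

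The Cebpb window, with the gene of C/EBPβ and the region downstream of it, held 29 peaks 6 h after hepatectomy and 25 after sham, and 2 in basal liver. At 48 h it held 7 after each operation, and 8 in the silenced 6 h list. Among 12519 windows of 210 kb laid end to end, 2 (0.0160%) held 29 or more hepatectomy peaks at 6 h, the highest count being 35, and 2 held 25 or more sham peaks. At least 7 peaks were found in 51 windows (0.407%) at 48 h after hepatectomy and in 18 (0.144%) at 48 h after sham. In the silenced 6 h list 6 windows (0.0479%) held 8 or more. The window was drawn with its peaks known, so these shares only describe how dense it was. Its 32 regions formed 5 groups separated by more than 10 kb.

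The group with the strongest peaks spanned 23.7 kb, chr2:167585537-167609257, and held 8 peaks after hepatectomy and 6 after sham at 6 h. Both basal peaks of the window lay in it. Cebpb-10, chr2:167590499-167591268, scored 27.2 in basal liver, 182 at 6 h after hepatectomy, 85.9 at 6 h after sham, 48.7 at 48 h after hepatectomy, 45.6 at 48 h after sham and 16.5 in the silenced 6 h liver. It was the highest-scoring peak of the window in all 5 unsilenced lists and stood 4th of 8 in the silenced one. Its ranks were 417 of 2482 in basal liver, 570 and 706 in the 6 h hepatectomy and sham lists, 354 and 431 in the 48 h lists, and 1722 of 4325 after silencing. The site was thus in the top 2.58% and 3.06% of the 6 h lists and at 39.8% of the silenced list. Of the 1279 hepatectomy peaks with a score of at least 100 and a silenced counterpart, 250 (19.5%) stood as low or lower in the silenced list, and their median place was 16.6%.

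Cebpb-13, chr2:167602654-167603790, was the other basal site. Its score was 16.9 in basal liver, 162 at 6 h after hepatectomy, 72.9 at 6 h after sham, 17.5 at 48 h after hepatectomy, 25.4 at 48 h after sham and 27.5 in the silenced 6 h liver. It was second in the window in basal liver, in both 6 h lists and at 48 h after hepatectomy, the third at 48 h after sham and first in the silenced list. By rank it stood at 36.2% of the basal list and 17.8% of the silenced one. In the 6 h lists it stood at 3.07% after hepatectomy and 4.22% after sham, and at 48 h at 25.4% and 22.5%. At 48 h after hepatectomy the region was called as 2 peaks. Beside it, Cebpb-12 at chr2:167600221-167601401 scored 113 after hepatectomy and 45.3 after sham at 6 h, 11.5 in each 48 h list and 21.2 in the silenced list, and had no basal peak. Cebpb-12 stood at 5.18% and 9.98% of the 6 h hepatectomy and sham lists and at 27.1% of the silenced list. The other 5 regions of the group had 6 h peaks alone, with scores from 9.69 to 16.1 after hepatectomy and from 8.93 to 21.1 after sham.

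A second dense group, 47.5 kb long at chr2:167648421-167695896, had no peak in basal liver. It held 12 peaks after hepatectomy and 14 after sham at 6 h. At 48 h it held 3 after each operation, and 4 were called in the silenced 6 h list. Cebpb-19, chr2:167652298-167652927, scored 127 and 54.6 in the 6 h hepatectomy and sham lists, 8.36 and 14.8 in the 48 h lists, and 23.6 in the silenced list, where it stood second in the window. Cebpb-22, chr2:167656281-167657551, scored 122 and 48.3 at 6 h, 11.5 and 15.3 at 48 h, and 9.97 after silencing. Both were alike in rank 6 h after hepatectomy, 970 and 1030 of 22071, and unlike in the silenced list, 1027 and 3454 of 4325. Of the 1279 strong hepatectomy peaks with a silenced counterpart, 37 (2.89%) stood as low as Cebpb-22 or lower in that list. Cebpb-22 was the lowest of 6 such members, and the share was 32.9% for Cebpb-12, 37.5% for Cebpb-19, 48.0% for Cebpb-13 and 57.1% for Stat3-6.

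In the same group, Cebpb-25 at chr2:167669847-167670529 had scores of 50.4 and 31.4 in the 6 h hepatectomy and sham lists and 14.2 in the silenced list. Its places by rank were 16.0% and 18.8% of the 6 h lists and 50.6% of the silenced list. At 48 h it was second in the window after sham (score 31.8, rank 732 of 4622) and had no peak after hepatectomy. Cebpb-21, chr2:167654939-167655793, scored 37.6 and 23.6 at 6 h and 9.97 in the silenced list, and had no 48 h peak. It stood at 23.0% and 29.1% of the 6 h lists and at 79.9% of the silenced list. In the 6 h hepatectomy list the highest-scoring regions of the window without a silenced peak were Cebpb-20, Cebpb-18 and Cebpb-2. In the 6 h sham list Cebpb-26, also without one, scored above them, at 26.1. Cebpb-20, chr2:167653714-167654211, scored 37.3 after hepatectomy and 22.7 after sham. Cebpb-18, chr2:167648421-167649412, scored 31.1 and 21.9, and Cebpb-2, chr2:167513038-167513573, 30.8 and 14.1. By rank after hepatectomy and sham, Cebpb-20 stood at 23.7% and 31.2%, Cebpb-18 at 28.8% and 33.1%, and Cebpb-2 at 28.9% and 57.3%. All 3 had peaks at 6 h alone.

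Cebpb-2 belonged to the first group of the window, 11.9 kb long at chr2:167511970-167523841. This group held 6 peaks after hepatectomy and 3 after sham at 6 h. Its highest-scoring region, Cebpb-6 at chr2:167523351-167523841, scored 40.4 and 22.4 at 6 h, 12.2 at 48 h after sham and 8.41 in the silenced list, with no peak at 48 h after hepatectomy. Cebpb-6 stood at 21.1% and 31.4% of the 6 h hepatectomy and sham lists and at 92.6% of the silenced list. The rest of the window held 3 peaks after hepatectomy and 2 after sham, in groups of 2 regions and 1 region. In gene order Cebpb stands between Tmem189 and Ptpn1, the gene of a tyrosine phosphatase. Outside the window, the nearest 6 h hepatectomy peaks lay 4466.5 bp before its start (score 9.25) and 50808 bp beyond its end (score 27.4). The members closest to those edges were 22185 bp and 13730.5 bp inside, with scores of 22.5 and 19.6.

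**Figure D3:**
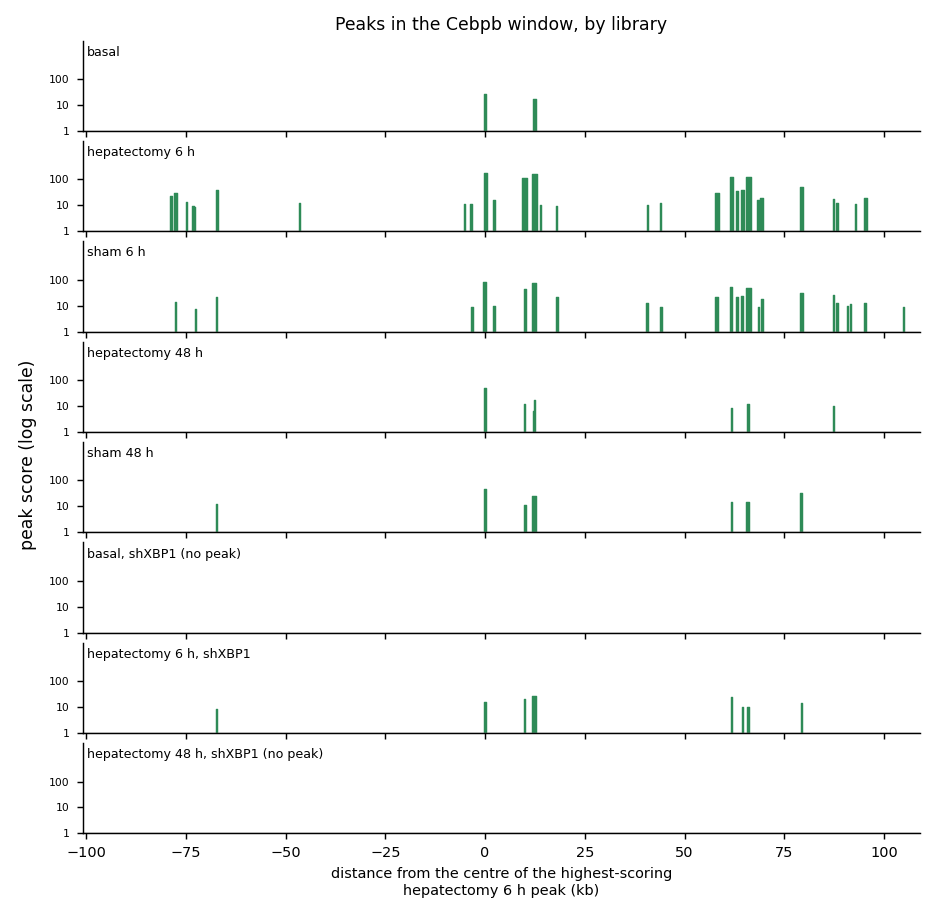
Peaks in the Cebpb window, 1 row per library; the horizontal axis is the distance in kb from the centre of the highest-scoring hepatectomy 6 h peak and the vertical axis the peak score on a log scale. Both basal bars, at 0 and near 12 kb, are among the tallest in the 6 h rows, and the bars near 60 to 70 kb are absent from basal liver.

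The sham operation controls for surgery without removal of tissue. At the 3 genes, 32 of the 43 hepatectomy peaks at 6 h overlapped a sham peak by at least 1 bp (74.4%, 58.8 to 86.5%), against 76.9% of the whole list. In reverse, 31 of the 35 sham peaks had a hepatectomy counterpart (88.6%, 73.3 to 96.8%), against 74.1%. Both whole-list shares lay inside the members' intervals, which treat neighbouring peaks as independent. The share was 4 of 6 at Stat3, 6 of 8 at Socs3 and 22 of 29 at Cebpb. Peaks without a sham counterpart were weak, with a median score of 11.2 against 26.6 for those with one. Of the 20 members with a score of at least 20, 18 had a sham counterpart, and the exceptions were Socs3-8 and Cebpb-1, chr2:167511970-167512402. The share climbed with score in the whole list too. Between 20 and 50 it was 10 of 12 members against 90.2% of the list. All members above had one, against 98.6% from 50 to 100 and 100% at 100 or more. From 10 to 20 it was 12 of 17 against 66.5%, and below 10 it was 2 of 6 against 49.7%. Cebpb-1 falls outside the rule for named regions and was named after its score of 22.5 was seen.

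The order of scores was alike in both 6 h lists. The 5 highest-scoring regions of the Cebpb window came in the same order, Cebpb-10, Cebpb-13, Cebpb-19, Cebpb-22 and Cebpb-12. Over the 31 regions with a peak in both lists Spearman's rho of the scores was 0.86, and over the 22 of the Cebpb window it was 0.89. These values are across regions of the same libraries, which are not independent replicates, and describe the lists alone. Between the 6 h hepatectomy list and the silenced one rho was 0.59 over 10 regions, and between the 6 h sham list and the silenced one 0.74 over 10. Between the 6 h hepatectomy list and the unsilenced 48 h lists it was 0.41 over 8 regions after hepatectomy and 0.52 over 10 after sham. These rest on fewer regions than the 0.86 and were not compared with it.

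At 48 h, 8 of the 9 hepatectomy peaks had a sham counterpart (88.9%, 51.8 to 99.7%), against 47.1% of the whole list, a share just below the interval. The interval treats neighbouring peaks as independent, and 7 of the 9 lay in the Cebpb window, drawn with its peaks known. Among them, 2 were calls of Cebpb-13, which was 1 peak after sham. The interval therefore does not set the members apart from the list. Of the 10 sham peaks, 7 had a hepatectomy counterpart (70.0%, 34.8 to 93.3%), against 72.5%. The sham peaks without one were Socs3-3, Cebpb-6 and Cebpb-25, and the hepatectomy peak without one was Cebpb-26, chr2:167677989-167678440, outside the rule and named because it was the single one. Every 48 h member lay on a 6 h member of the same operation, 9 of 9 after hepatectomy and 10 of 10 after sham, against 91.0% and 97.7% of the whole lists. In the other direction most 6 h peaks had no 48 h counterpart, among the members and in the whole list. Of the 43 hepatectomy peaks at 6 h, 8 had a counterpart 48 h after hepatectomy (18.6%, 8.39 to 33.4%), against 28.9% of the whole list. The whole-list share lay inside the interval, so the members could not be told apart from the list. With lists cut to equal length the members' share was 43.8% (7 of 16). With a score of at least 20 it was 5.00% (1 of 20), and with overlap of 50% of both peaks 4.65%. The whole-list shares under these settings were not computed. The median score of those 8 was 118, and that of the other 35 was 16.1.

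Most 6 h peaks in the windows had no basal counterpart, in lists of very unequal length. The 3 basal members, Stat3-6, Cebpb-10 and Cebpb-13, had a peak 6 h after hepatectomy (98.3% in the whole list). They also had a peak 6 h after sham and 48 h after either operation, where the whole-list shares of basal peaks were not computed. In reverse, 3 of the 43 hepatectomy peaks had a basal counterpart (6.98%, 1.46 to 19.1%), against 10.9% of the whole list. The same 3 sites made up the 3 of 35 sham peaks at 6 h with a basal counterpart (8.57%, 1.80 to 23.1%), against 10.5%. These shares could not be told apart from those of the whole lists at this number of members. With lists cut to equal length by score, the members' shares were 50.0% (3 of 6) after hepatectomy and 42.9% (3 of 7) after sham. The whole-list shares at equal length were not computed. Without a basal peak the highest-scoring 6 h members were Cebpb-19 and Cebpb-22 after hepatectomy and Socs3-2 and Cebpb-19 after sham.

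**Figure D4:**
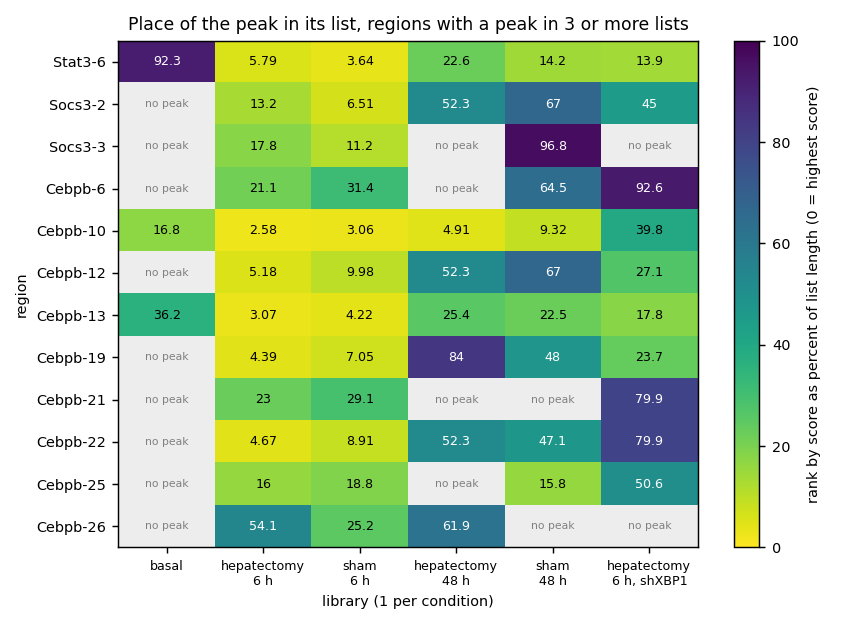
Place of each peak in its list, as rank by score in percent of the list's length (colour and printed value, 0 being the highest score), for the 12 regions with a peak in 3 or more lists (vertical axis) in the 6 libraries with a member (horizontal axis). Cebpb-10 stands in the top 2.58% to 16.8% of the 5 unsilenced lists and at 39.8% of the silenced one, and Stat3-6 at 92.3% of the basal list.

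Silencing is meant to lower the protein that the antibody binds. It was read 6 h after hepatectomy, where the silenced list had members. Of the 43 unsilenced peaks, 10 overlapped a silenced peak (23.3%, 11.8 to 38.6%), against 18.9% of the whole list. With both lists cut to equal length by score the share was 88.9% (8 of 9). The whole-list share at equal length was not computed. The 10 were Stat3-6, Socs3-2 and 8 regions of the Cebpb window. All 10 silenced members lay on an unsilenced hepatectomy peak, against 98.2% of the whole silenced list, and on a sham peak as well. The whole-list share on sham peaks was not computed. Of the 35 sham members at 6 h, 10 had a silenced counterpart (28.6%, 14.6 to 46.3%), against 17.6% of that list.

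Which members kept a counterpart largely followed their score in the unsilenced list. Those kept had a median score of 108 and those without one 13.8. The ranges overlapped, as the lowest score kept was 37.6 and the highest without a counterpart 46.1. Socs3-3 (46.1) and Socs3-6 (40.4) had no silenced peak, while Cebpb-6 (40.4) and Cebpb-21 (37.6) had one. All 6 members with a score of at least 100 had a silenced peak, against 94.8% of such peaks in the whole list, and both members between 50 and 100 did, against 61.7%. Between 20 and 50 it was 2 of 12, against 17.8%. None of the 17 members between 10 and 20 and none of the 6 below 10 had one, against 3.05% and 0.803%. XBP1 left after silencing and other signal of the antibody cannot be told apart in the silenced list.

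**Figure D5:**
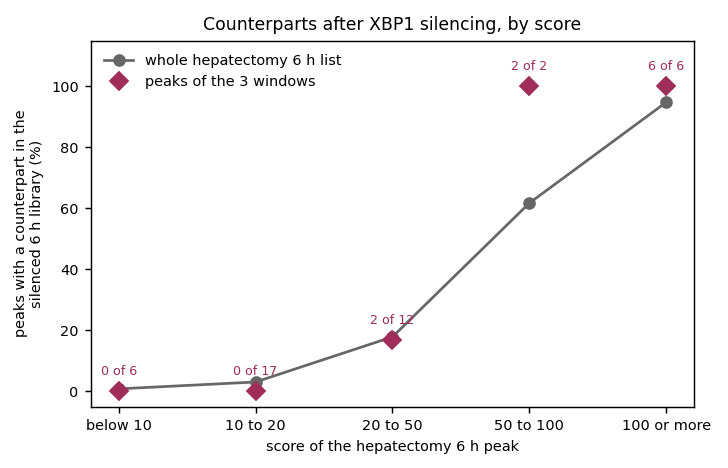
Share of hepatectomy 6 h peaks with a counterpart in the silenced 6 h library (percent, vertical axis) by the score of the peak (horizontal axis), for the whole list (line) and for the 43 members (diamonds, with counts). The share climbs with score in both, from 0 of 6 members below 10 to 6 of 6 at 100 or more.

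In basal liver none of the 3 members had a counterpart in the silenced basal list, against 4.75% of the whole list. At 48 h after hepatectomy none of the 9 did, against 0.915%. Both silenced lists were short, and their peaks were narrow, with median widths of 103 bp and 94 bp against 319 bp and 290 bp in the matching unsilenced lists. The part of these differences in the result was not tested. Compared with the silenced 6 h list instead, all 3 basal members had a silenced counterpart, against 71.1% of the basal list, and 8 of the 9 members at 48 h did, against 42.6%. The 48 h member without one was again Cebpb-26.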

How the data were processed

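The members, windows and lists were chosen with earlier results of these data known. Per the submitters' processing notes, reads were aligned with Bowtie2 and peaks called with MACS 1.4.2 on mm9. Settings and the use of the input are not stated in these sources. The deposited lists, 1 per library, hold positions and a score, read here as −log10 of a p-value. This scale was inferred and goes against the usual output of this MACS version, 10 times −log10, on which every score would stand for a weaker p-value. Ranks are the same on both. In favour of −log10, 26.6% to 62.5% of the scores lay within 0.0051 of the steps of Poisson tail probabilities for 1 background mean, against 6.28% to 25.5% if read as 10 times −log10, and the silenced basal list gave the lowest share. The input library was not analysed here. Depth per library is unknown.

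Members were peaks with their midpoint in a window. They were ranked by score in their list, merged where they touched or overlapped, and called shared from 1 bp of overlap. Named regions held the highest-scoring peak of their window in any list, a peak in basal or silenced liver, or 1 of the 3 highest-scoring 6 h hepatectomy peaks per window without a silenced counterpart. Shares have Clopper-Pearson 95% intervals. Equal windows were laid end to end up to the last peak of each chromosome. Alternatives were window membership by any overlap, a score of at least 10 or 20, merging within 500 bp, overlap of 50% of both peaks, midpoints within 250 bp and equal numbers of highest-scoring peaks. The silenced 6 h list in place of the others was added after seeing the data. Python 3.11.15, NumPy 2.4.6, pandas 2.3.3, SciPy 1.17.1 and matplotlib 3.10.9 were used, and overlap counts were tested on simulated data with bedtools 2.31.1. No mm9 genome or annotation was used here, so peaks near other interleukin-6 pathway genes were not counted.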

Additional observations from a re-analysis of the deposited data

Results flagged for a closer look

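Over the windows together, hepatectomy gave more peaks than sham at 6 h and 1 fewer at 48 h. Over the 3 windows the ratio of hepatectomy to sham peaks was 1.23 at 6 h (43 against 35) and 0.90 at 48 h (9 against 10). At Socs3 it was 1.33 at 6 h (8 against 6) and 0.5 at 48 h (1 against 2). The 8 include 2 peaks in Socs3-2, which was called as 1 peak after sham. With peaks within 500 bp merged, the 3 windows held 36 hepatectomy and 35 sham peaks at 6 h, so most of the 6 h excess was gone. At 48 h they then held 8 and 10. Before merging, Stat3 had 1 peak and Cebpb 7 after each operation at 48 h, so the unmerged order at 48 h rests on 1 Socs3 peak. With 1 library per condition, this difference was not tested. The whole lists gave 0.956 at 6 h and 1.56 at 48 h, the reverse order.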

How the results depend on the processing

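Of 88 values recomputed under the alternatives, 72 stayed within 1.5 times of a count or inside the interval of a share. The 72 include counts and shares of 0 for the silenced basal and 48 h lists, which a score cut could not raise. Cutting lists to equal length moved 5 shares and left 1 inside its interval. With a score of at least 20 the members numbered 1 in basal liver, 20 and 15 at 6 h after hepatectomy and sham, 1 and 4 at 48 h, and 4 in the silenced 6 h list. At that score 5.00% of the 6 h hepatectomy members had a 48 h counterpart and 100% (1 of 1) of the 48 h hepatectomy members a sham one. With 50% overlap of both peaks, 4.65% of the 6 h hepatectomy members had a 48 h counterpart. When lists were cut to equal length by score, the share of 6 h hepatectomy members with a counterpart was 88.9% (8 of 9) in the silenced 6 h list, 50.0% (3 of 6) in basal liver and 43.8% (7 of 16) at 48 h. It was 42.9% (3 of 7) for 6 h sham against basal and 100% (6 of 6) for 48 h hepatectomy against sham. Under these alternatives whole-list shares were not computed. With the silenced 6 h list in place, 100% of the basal and 88.9% of the 48 h members had a counterpart. Equal length left no basal or 48 h member to set against the short silenced lists. No paired analysis was possible because each condition had 1 library. Unknown depth limits every comparison of peak numbers between lists.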
